A study of Mus musculus with 6 samples.

Results

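Fibrinogen, the protein of the blood clot, is assembled from 3 chains encoded by Fga, Fgb and Fgg, and these genes were examined with 6 others that start, sense or dissolve clots: F3, F2r, Thbd, Plau, Plat and Plaur. The 9 genes, chosen by symbol, are the fibrinogen chains, the cell-bound F3, F2r, Thbd and Plaur, and the plasminogen activators Plau and Plat. All 9 were found among the 55450 genes of the count table and were tested, with 16592 genes tested in all. Kidney mRNA of C57BL/6J wild-type male mice, 7 weeks old when bought and housed for 1 week before the study, was sequenced. The day-0 group (n = 3) was labelled as control and as given 20% PEG, a vehicle, and the day-21 group (n = 3) received adenine at 0.16 g/kg and potassium oxonate at 2.4 g/kg by gavage once a day until day 21. Oxonate blocks uricase, the enzyme by which mice break down uric acid, and adenine is a purine that harms renal tubules, so the groups differ in 2 agents and in time at once, and these cannot be told apart. The vehicle of the day-21 mice is not given in the sources used here. The study had 6 mice per time group, and the 3 mice per group here are separate animals, each with its own library.

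Fibrinogen is made mainly by hepatocytes and circulates in plasma, where thrombin turns it into fibrin, and extrahepatic epithelia can transcribe it under inflammatory stimulation. F3 encodes tissue factor, the membrane protein that starts clotting by binding factor VII, F2r encodes a receptor that thrombin activates by cleavage, and Thbd encodes thrombomodulin, which turns thrombin toward activation of protein C. Plau (urokinase) and Plat (tissue-type activator) turn plasminogen into plasmin, which dissolves fibrin, Plaur is the receptor that holds urokinase at the cell surface, and urokinase is a known product of renal tubules that enters urine.

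The 3 fibrinogen genes lie together on chromosome 3 within 42140 bases, from 83007724 to 83049863 on GRCm38 (mm10). Fgg covers 83007724 to 83015049 and Fga 83026076 to 83033627 on the forward strand, and Fgb covers 83040141 to 83049863 on the reverse strand. The sequences upstream of the fibrinogen genes, F3 and Plaur, 5 of the 6 genes called higher on day 21, are printed to show which short motifs of liver and inflammatory factors their promoters hold. Each is the stretch before the annotated start from RefSeq on GRCm38.p6, 5′ to 3′ on the strand of the gene. That of Fga is 173 bases long because the first GENCODE exon begins before the RefSeq start, and that of Fgg lies inside the gene of a long non-coding RNA on the other strand, Gm30097. Capitals mark matches to the motifs on either strand.
Fga, chr3:83025903-83026075, forward strand: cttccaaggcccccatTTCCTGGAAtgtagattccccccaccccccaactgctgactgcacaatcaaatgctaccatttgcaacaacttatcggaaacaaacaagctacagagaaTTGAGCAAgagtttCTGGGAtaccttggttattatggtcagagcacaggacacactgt
Fgb, chr3:83049864-83050113, reverse strand: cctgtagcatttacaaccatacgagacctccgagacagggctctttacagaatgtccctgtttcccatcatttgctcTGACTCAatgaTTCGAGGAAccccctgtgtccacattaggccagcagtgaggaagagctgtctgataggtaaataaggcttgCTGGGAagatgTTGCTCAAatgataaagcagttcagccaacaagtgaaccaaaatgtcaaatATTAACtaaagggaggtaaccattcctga
Fgg, chr3:83007474-83007723, forward strand: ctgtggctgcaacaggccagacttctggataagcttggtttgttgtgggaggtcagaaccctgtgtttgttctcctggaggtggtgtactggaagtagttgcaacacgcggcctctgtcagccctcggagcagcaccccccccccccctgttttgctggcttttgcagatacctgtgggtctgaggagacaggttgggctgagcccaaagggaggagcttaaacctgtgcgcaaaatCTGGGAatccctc
F3, chr3:121723287-121723536, forward strand: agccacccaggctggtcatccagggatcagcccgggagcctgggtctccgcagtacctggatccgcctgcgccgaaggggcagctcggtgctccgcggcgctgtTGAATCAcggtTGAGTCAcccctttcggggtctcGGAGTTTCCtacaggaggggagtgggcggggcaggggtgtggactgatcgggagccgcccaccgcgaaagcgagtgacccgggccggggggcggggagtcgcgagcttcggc
Plaur, chr7:24462233-24462482, forward strand: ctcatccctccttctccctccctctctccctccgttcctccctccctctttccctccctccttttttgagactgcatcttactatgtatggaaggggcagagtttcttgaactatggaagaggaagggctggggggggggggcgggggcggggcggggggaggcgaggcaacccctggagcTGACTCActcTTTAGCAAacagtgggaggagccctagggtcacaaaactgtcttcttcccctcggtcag

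The letters CTGGGA, the core of the IL-6 response element known from fibrinogen promoters, stood in the window of each fibrinogen gene, beginning 121 bases before the RefSeq start in Fga, 91 in Fgb and 13 in Fgg, and 27% of 32851 promoter windows held them. The Fga and Fgb windows also held TTGCNNAA, the core bound by C/EBP proteins (9.56% of windows), and TTCNNNGAA, the palindrome bound by STAT factors (7.02% of windows). GTTAAT, a half-site of the hepatic factor HNF1, was found in both as well, on the reverse strand, at 43 bases before the RefSeq start in Fga, outside the printed stretch, and at 29 in Fgb, and 6.43% of windows held it. In F3, TGANTCA, the AP-1 motif (6.75% of windows), was found at 146 and 135 bases before the start and GGANTTTCC, a kappa-B motif (1.07% of windows), at 112. Plaur held the AP-1 motif at 69 and the C/EBP core at 59, Fgb held the AP-1 motif at 173, and the F2r window, not printed, held CTGGGA and the AP-1 motif. The TATA box, TATAAA (12.4% of windows), was found in none of these 6 windows. No 2 of the marked matches overlapped. Windows were the 250 bases before the RefSeq start. These are matches of letters and say nothing of binding.

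Each library held between 10963849 and 14333311 counts. Levels are given as CPM, counts scaled to library size with the TMM factors of edgeR, and a gene was called a differentially expressed gene (DEG) when the Benjamini-Hochberg adjusted p of edgeR's quasi-likelihood test was under 0.05 and the fold over 1.5. By this rule 35.1% of the tested genes were DEGs, 19.6% higher and 15.5% lower on day 21, so that 55.8% of DEGs were higher, against 81.7% with scaling by library size alone. With that scaling the median log2 fold change over the tested genes was 0.42 in place of 0.03, and with upper-quartile scaling 0.12. Markers of kidney tubules were abundant, at 10614–11602 CPM in sum for 8 proximal tubule genes on day 0 and 2238–2777 CPM on day 21, and all 8 fell. Mitochondrially encoded genes took 9.39–9.86% of counts on day 0 and 3.82–4.42% on day 21. In whole kidney, more cells of a type and more RNA per cell cannot be told apart.

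Of the 9 genes, 6 were called higher on day 21 (Fga, Fgb, Fgg, F3, F2r and Plaur), none lower, and Plau, Plat and Thbd were not called. Against 19.6% of all tested genes called higher, this was 6 of 9, and the median log2 fold change was 1.49, against 0.03 over all tested genes. The 9 genes were chosen with earlier results of these data known, and Fga, Fgb and Fgg lie in 1 cluster. The comparison is therefore descriptive and is no independent test of an excess. In 8 of the 9 genes, Thbd excepted, no day-0 mouse reached into the range of the day-21 mice, and such separation, in either direction, held for 57.1% of all tested genes.

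**Figure D1:**
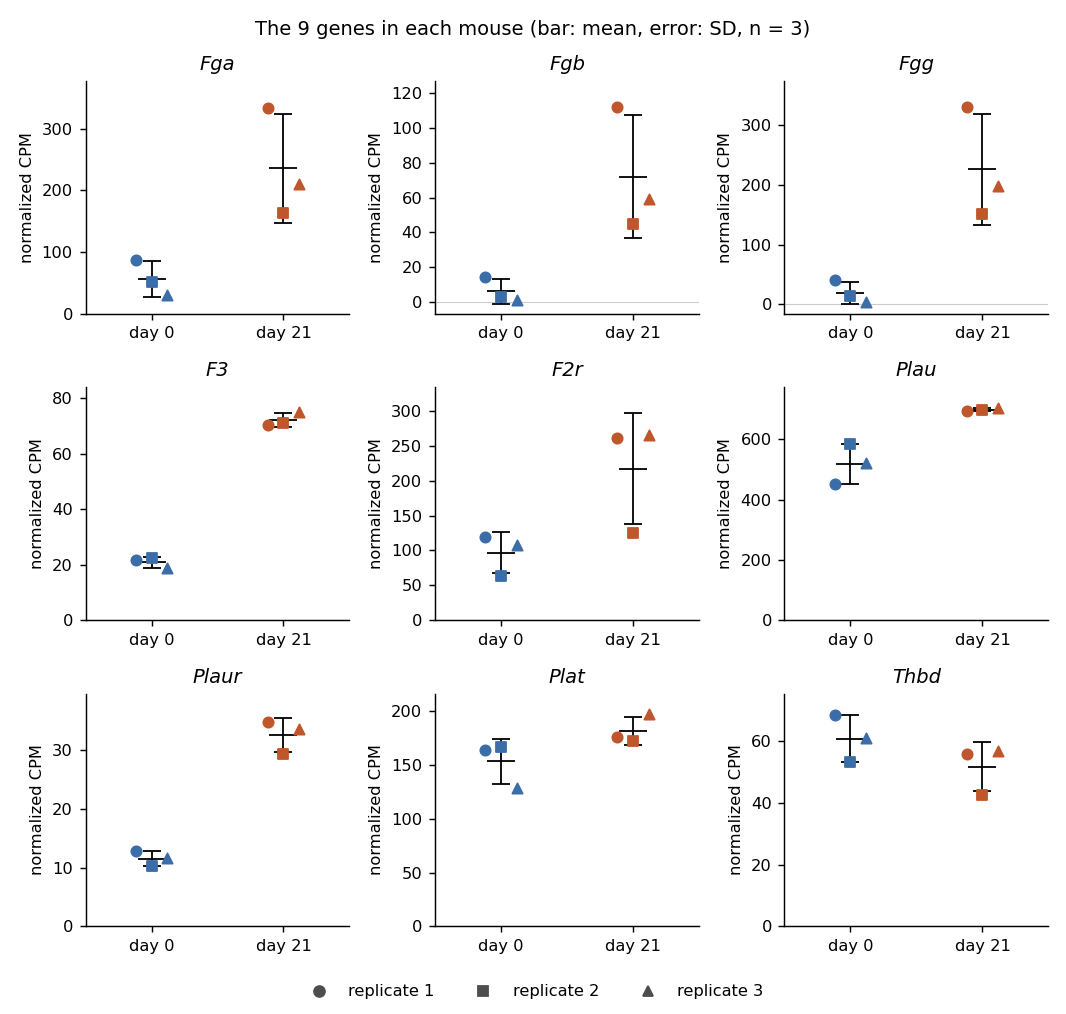
Scaled level (CPM, linear axes) of each of the 9 genes in each of the 6 mice, by group, with the group mean (bar) and SD (error, n = 3). The day-21 mice lie above the day-0 mice in every panel but that of Thbd, and the day-0 spread of Fgb and Fgg is wide.

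Among the chains of fibrinogen, Fga, which encodes the alpha chain, measured 87.9, 51.2 and 30.3 CPM in the day-0 mice and 334, 163 and 210 CPM in the day-21 mice, in order of replicate. Every day-21 mouse was above every day-0 mouse, and the first replicate was the highest of its group on both days. The log2 fold change was 2.06 ± 0.36 (SE), 4.17-fold with a 95% interval of 2.40 to 7.25 (adjusted p = 0.001).

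Fgb, the gene of the beta chain, measured 14.5, 2.56 and 1.24 CPM on day 0, which were 145, 31 and 12 counts, and 112, 44.6 and 59.3 CPM on day 21. The groups did not overlap, and the highest and lowest day-0 mice differed 11.8-fold, against 2.52-fold between the day-21 mice. Fgb rose by a log2 fold change of 3.58 ± 0.65 (SE), 11.9-fold with an interval of 4.37 to 32.6 (adjusted p = 0.0013), and without day-0 replicate 1 the log2 fold change was 5.17.

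Fgg, the gene of the gamma chain, measured 40.0, 14.7 and 3.50 CPM on day 0 and 329, 151 and 197 CPM on day 21. The order of the mice within each group was that of Fga, and the day-0 mice differed 11.4-fold among themselves. Its log2 fold change was 3.54 ± 0.62 (SE), 11.7-fold with an interval of 4.47 to 30.3 (adjusted p = 0.0011), and it was 4.56 without day-0 replicate 1. The 3 chains summed to 142, 68.4 and 35.0 CPM in the day-0 mice and to 775, 359 and 466 CPM in the day-21 mice, and the sum of the lowest day-21 mouse was above that of the highest day-0 mouse. The sizes of the Fgb and Fgg changes rest on day-0 levels that varied by 11.4-fold or more between mice, and both were called higher with each mouse left out.

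The fitted changes of the chains differed in size, and their ratios within a mouse do not depend on the scaling of libraries. The Fgg to Fga count ratio was 0.455, 0.287 and 0.117 on day 0 and 0.986, 0.928 and 0.939 on day 21. Divided by exon length, this was 0.655, 0.413 and 0.168 on day 0 and 1.42, 1.33 and 1.35 on day 21. Fgg was thus below Fga per length in every day-0 mouse and above it in every day-21 mouse. The Fgb to Fga count ratio was 0.166, 0.0507 and 0.0424 on day 0 and 0.337, 0.274 and 0.282 on day 21. Both ratios were higher in each day-21 mouse than in any day-0 mouse, by a log2 difference of 1.94 for Fgg to Fga and 2.06 for Fgb to Fga. In a two-sided exact permutation test each gave p = 0.10, the smallest that 3 against 3 mice allow, and 0.120 adjusted over 6 ratios. The day-21 ratios lay close together, with an SD of 0.05 on the log2 scale for Fgg to Fga and 0.16 for Fgb to Fga, against 1.00 and 1.07 on day 0. Without day-0 replicate 1, the log2 difference of Fgb to Fga was 2.68, and without day-0 replicate 3 it was 1.69. That of Fgg to Fga was 2.37 without day-0 replicate 1 and 1.39 without day-0 replicate 3.

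**Figure D2:**
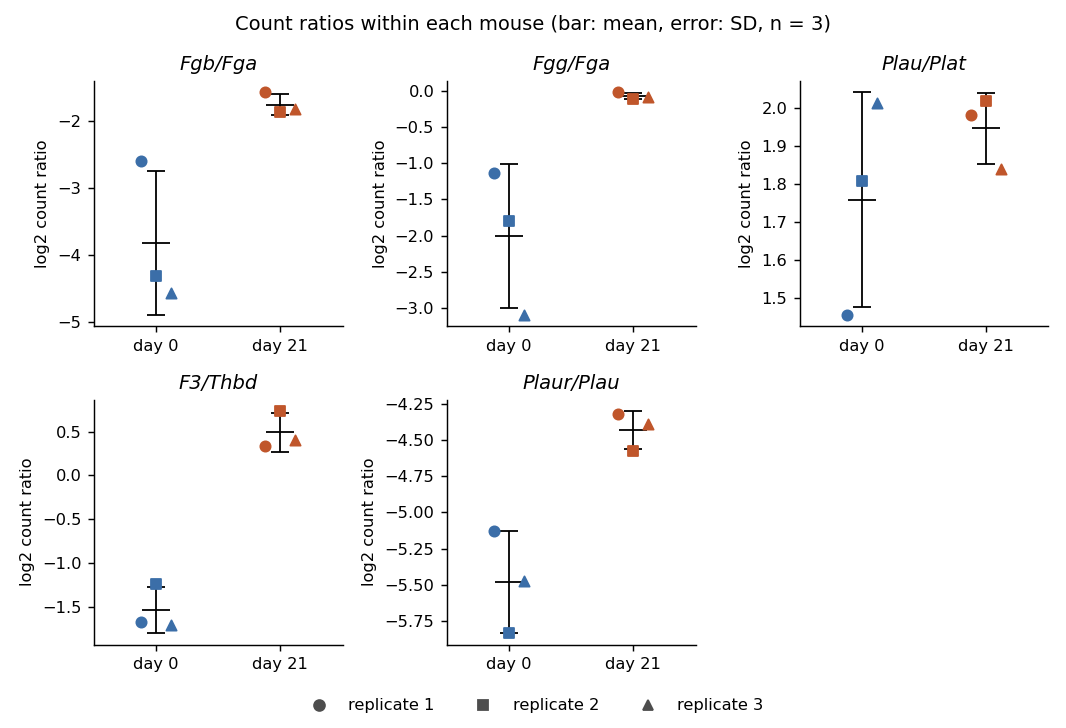
Log2 of the count ratio of 2 genes within each mouse, for 5 pairs, with the group mean (bar) and SD (error, n = 3). Only the Plau/Plat panel has overlapping groups, and the ratios to Fga are spread on day 0 and tight on day 21.

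Around the cluster, neither of the nearest protein-coding genes was called higher. Lrat, which esterifies retinol, begins 103751 bases on the lower-coordinate side and measured 4.71, 2.97 and 1.75 CPM on day 0 and 1.34, 1.25 and 1.04 CPM on day 21. Its groups did not overlap, and it fell by 1.37 ± 0.41 (SE) on the log2 scale (adjusted p = 0.02), a call lost without day-0 replicate 1 (-1.0), without day-21 replicate 2 (-1.40), without day-21 replicate 3 (-1.27) and with library size alone (-0.98). Plrg1, a splicing factor gene, lies 5659 bases on the other side and measured 28.9, 28.4 and 28.5 CPM on day 0 and 36.4, 35.7 and 38.3 CPM on day 21, a log2 fold change of 0.37 ± 0.11 (SE, adjusted p = 0.02) that was under the fold for a call except with library size alone (0.75).

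Gm30097, the long non-coding RNA on the reverse strand at the start of Fgg, was picked out after its values were seen. It had 137, 55 and 20 counts at day 0, against 1496, 723 and 876 at day 21, and its log2 fold change was 3.32 ± 0.54 (SE, adjusted p = 6.3e-04). Of its 768 exon bases, 115 (15.0%) overlap exons of Fgg, which is 5.5% of the exon bases of Fgg. The strand setting of the counting is not given in the sources used here, so reads over the shared bases cannot be assigned between the pair. None of the other 8 genes shared exon bases with another annotated gene.

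**Figure D3:**
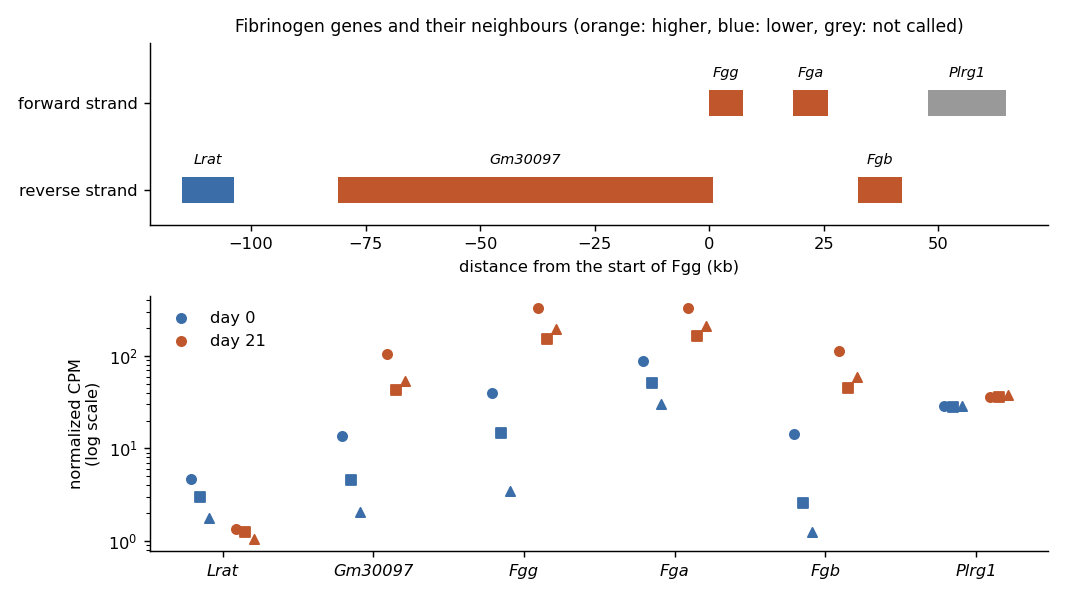
Top, the fibrinogen genes and their neighbours drawn to scale by distance from the start of Fgg (kb), by strand. Bottom, their scaled levels (CPM, log axis) in each mouse (circle, square and triangle for replicates 1, 2 and 3), in which Gm30097 and the 3 fibrinogen genes lie higher on day 21, Lrat lower, and Plrg1 at means of 28.6 and 36.8 CPM.

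Since fibrinogen is a hepatocyte product, markers of hepatocytes were read beside it. Of 10 such genes 7 were tested, 5 were called lower and none higher, and their sum was 1189–2178 CPM on day 0 and 333–464 CPM on day 21. Alb, the albumin gene, had 70, 92 and 61 counts at day 0, against 19, 17 and 10 at day 21, and fell by 2.82 ± 0.32 (SE) on the log2 scale (adjusted p = 6.8e-05). Ahsg, another abundant hepatocyte gene, had 0 counts in 5 mice and 2 in one day-21 mouse, under the floor of 3 counts used for detection. Several genes of this list, such as Cyp2e1 and Apob, are also expressed in kidney and made up most of the sum. Of 12 acute phase genes, which the liver raises in inflammation, 5 were tested, 4 rose (Lcn2, Cp, Lbp and Itih3) and Hp was not called (log2 fold change 0.35, adjusted p = 0.595). The sum of the 12 was 72.2–120 CPM on day 0 and 1245–1302 CPM on day 21. Cp and Lcn2 made up most of the day-21 sum, with means of 708 and 510 CPM. Lcn2, a secreted protein of injured tubules, had 75, 82 and 53 counts at day 0, against 8013, 8078 and 7866 at day 21, and Saa2 had 0 counts in every mouse. The part of other cell types in the fibrinogen change was not tested beyond these values.

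Among the genes that start and sense clotting, F3 measured 21.5, 22.5 and 18.6 CPM on day 0 and 70.4, 71.1 and 74.9 CPM on day 21. The groups were far apart and each was tight, the day-21 mice differing by 1.06-fold. Tissue factor mRNA rose 3.46-fold with an interval of 2.89 to 4.14 (log2 fold change 1.79 ± 0.12, SE, adjusted p = 2.6e-06), the smallest adjusted p of the 9 genes.

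F2r, the thrombin receptor gene on chromosome 13 (95601803 to 95618487, reverse strand), measured 119, 63.4 and 108 CPM on day 0 and 262, 125 and 266 CPM on day 21. The second replicate was the lowest of its group on both days, and that of day 21 stood only just above the highest day-0 mouse. The log2 fold change was 1.17 ± 0.30 (SE), 2.25-fold with an interval of 1.43 to 3.55 (adjusted p = 0.0085). Fibroblast markers, 7 genes that all rose, were lowest in the same mice, at 229, 200 and 340 CPM in sum on day 0 and 2018, 1143 and 2159 CPM on day 21. The part of that cell type in the change of F2r was not tested.

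Thbd, a single-exon gene on chromosome 2 (148404466 to 148408188, reverse strand), measured 68.5, 53.1 and 60.9 CPM on day 0 and 55.9, 42.5 and 56.8 CPM on day 21. The groups overlapped. The log2 fold change was -0.23 ± 0.14 (SE, adjusted p = 0.217), with a 95% interval of the fold from 0.681 to 1.06, and with library size alone it was 0.15, below the median of all genes under that scaling. Thrombomodulin is carried largely by endothelium, and of 10 endothelial markers 2 were called lower (Kdr and Flt1) and 8 not called, with sums of 707–816 CPM on day 0 and 382–630 CPM on day 21, lowest in day-21 replicate 2, which was also lowest in Thbd.

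Tissue factor, which starts clotting, was set against thrombomodulin, which restrains it, within each mouse. The F3 to Thbd count ratio was 0.314, 0.424 and 0.305 on day 0 and 1.26, 1.67 and 1.32 on day 21. F3 had fewer counts than Thbd in every day-0 mouse and more in every day-21 mouse, and per exon length the order was the same (0.450–0.625 on day 0 and 1.85–2.46 on day 21). The log2 difference was 2.03 (two-sided exact permutation p = 0.10, adjusted p = 0.120).

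Of the activators of plasminogen, Plau was the most abundant of the 9 genes per exon length on both days. It lies on chromosome 14 (20836660 to 20843385, forward strand) and measured 451, 585 and 520 CPM on day 0 and 695, 699 and 703 CPM on day 21. The groups did not overlap, and the day-21 mice differed by 1.01-fold against a wider day-0 group. The log2 fold change was 0.43 ± 0.12 (SE, adjusted p = 0.015), 1.35-fold with an interval of 1.12 to 1.62. Plau thus passed the threshold on p and not that on fold, and it passed both with library size alone (0.82). It missed the threshold on p in the same test without day-0 replicate 1 (0.32, adjusted p = 0.069) and without day-21 replicate 3 (0.43, adjusted p = 0.058).

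Plat, on chromosome 8 (22757727 to 22782844, forward strand), measured 164, 167 and 129 CPM on day 0 and 176, 172 and 197 CPM on day 21. The groups did not overlap but lay close, and the difference was not called (log2 fold change 0.24 ± 0.13, SE, adjusted p = 0.144), with an interval of the fold from 0.974 to 1.44. With library size alone it was called, at 0.63. The Plau to Plat count ratio was 2.74, 3.50 and 4.04 on day 0 and 3.95, 4.05 and 3.58 on day 21, and these overlapped (log2 difference 0.19, two-sided exact permutation p = 0.40).

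Plaur, the urokinase receptor gene on chromosome 7 (24462484 to 24475968, forward strand), measured 12.8, 10.2 and 11.6 CPM on day 0 and 34.8, 29.3 and 33.5 CPM on day 21. The groups were separate, with little spread in either. The log2 fold change was 1.49 ± 0.14 (SE), 2.82-fold with an interval of 2.25 to 3.52 (adjusted p = 2.3e-05). The Plaur to Plau count ratio, receptor to ligand, was 0.0286, 0.0175 and 0.0225 on day 0 and 0.0501, 0.0420 and 0.0477 on day 21, without overlap (log2 difference 1.05, two-sided exact permutation p = 0.10, adjusted p = 0.120). Macrophages carry this receptor, and 8 of 8 macrophage markers were called higher, with sums of 165–212 CPM on day 0 and 934–1257 CPM on day 21. Their part in the change of Plaur was not tested.

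The 9 genes were also ordered by their level per kilobase of exon. On day 0, Plau stood at 219 ± 28.3 CPM per kb (SD, n = 3), followed by F2r (29.0 ± 8.78), Plat (24.6 ± 3.42), Fga (18.8 ± 9.69), Thbd (16.3 ± 2.07), Fgg (9.27 ± 8.94), F3 (8.25 ± 0.810), Plaur (4.42 ± 0.50) and Fgb (1.60 ± 1.92). Each gene from F2r to Fgg overlapped the next in the order, while Plau, F3 and Plaur did not. On day 21, Plau stood at 295 ± 1.81 CPM per kb, followed by Fgg (108 ± 44.1), Fga (78.2 ± 29.3), F2r (65.1 ± 24.0), Plat (29.1 ± 2.09), F3 (28.5 ± 0.959), Fgb (18.9 ± 9.38), Thbd (13.9 ± 2.15) and Plaur (12.4 ± 1.10). Fgg, Fga and F2r overlapped in sequence, as did the 5 genes from Plat to Plaur, while Plau and F2r did not overlap the next. Among the 16592 tested genes ordered by this level, Fgg moved from place 5448 to 368, Fga from 3073 to 545 and Fgb from 11973 to 2736.

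The other genes of clotting and fibrinolysis, 47 in 5 lists, moved in both directions: of the 37 tested, 15 were called higher, 6 lower and 16 not called. Their median log2 fold change was 0.81. The shares of all tested genes called were 19.6% higher and 15.5% lower, as above. These lists too were chosen with earlier results of these data known. The other 10 genes were too low to be tested.

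**Figure D4:**
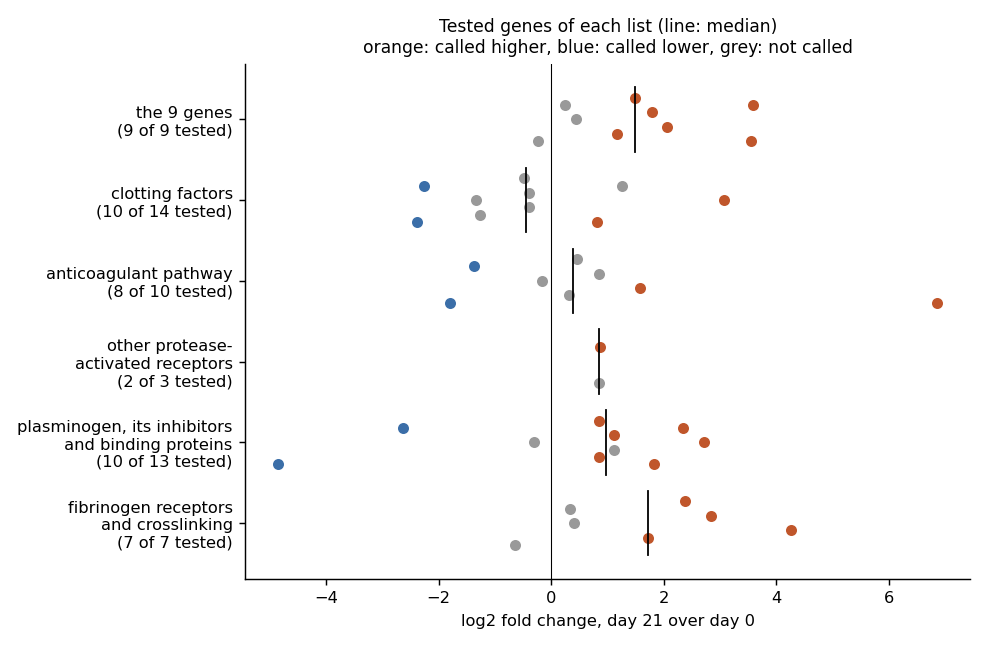
Log2 fold change, day 21 over day 0, of each tested gene (points) in the 9 genes and in the 5 lists of other pathway genes, with the median of each (line). The median is 1.49 for the 9 genes, -0.45 for the clotting factors and 1.71 for the receptors of fibrinogen.

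Of 14 clotting factor genes 10 were tested, with 2 higher, 2 lower and 6 not called. F13b, the carrier subunit of the fibrin-crosslinking factor XIII, measured 141, 142 and 151 CPM on day 0 and 28.8, 26.2 and 28.2 CPM on day 21 and fell by 2.38 ± 0.11 (SE) on the log2 scale (adjusted p = 5.3e-07). F5, the cofactor that speeds formation of thrombin, measured 15.8, 10.6 and 16.5 CPM on day 0 and 4.38, 2.15 and 2.45 CPM on day 21 and fell by 2.26 ± 0.30 (adjusted p = 1.7e-04), and 3.5% of its exon bases are shared with an annotated gene on the other strand. In both genes the groups were separate. They were named as the only DEGs of the list that were lower. The calls in this list, 2 higher and 2 lower of 10 tested, lay near the shares over all tested genes, 19.6% and 15.5%. F13a1, the other factor XIII gene of the list, was looked up afterwards. Its groups overlapped and it was not called (log2 fold change -0.40, adjusted p = 0.511). Kng1, a kininogen gene, rose from 6, 4 and 2 counts to 50, 59 and 43 (log2 fold change 3.06 ± 0.44, adjusted p = 3.2e-04), and it is uncertain because the similar Kng2, not called, had 2166–3893 counts. Vwf, the endothelial gene of von Willebrand factor, measured 3.91, 6.92 and 7.42 CPM on day 0 and 10.5, 8.35 and 13.3 CPM on day 21, and its call (log2 fold change 0.81 ± 0.27, adjusted p = 0.032) was lost without day-0 replicate 1 (0.56), day-0 replicate 2 (0.92), day-21 replicate 1 (0.83) or day-21 replicate 3 (0.63). F7 and F2 were looked up afterwards as the partner of tissue factor and the precursor of thrombin. F7 had 0 counts in each day-0 mouse and 1, 18 and 5 on day 21, and F2 had 21, 7 and 13 counts at day 0, against 4, 18 and 4 at day 21 and was not called (log2 fold change -1.27, adjusted p = 0.146).

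Of 10 anticoagulant genes 8 were tested, with 2 higher, 2 lower and 4 not called. Serpina10, the inhibitor of factor X that works with protein Z, had 12, 6 and 11 counts at day 0, against 1510, 1858 and 1735 at day 21, which were 1.2, 0.495 and 1.13 CPM and 107, 111 and 106 CPM. The day-21 mice lay close together and far above all day-0 mice (log2 fold change 6.86 ± 0.21, SE, adjusted p = 7.6e-08). Proz, its cofactor protein Z, went the other way, from 9.53, 12.4 and 10.5 CPM to 2.12, 3.58 and 3.55 CPM, and fell by 1.80 ± 0.25 (adjusted p = 2.6e-04). Proc, the protein C that thrombomodulin helps to activate, fell by 1.38 ± 0.15 (adjusted p = 4.8e-05), from 135, 185 and 184 CPM to 72.5, 56.4 and 64.7 CPM. Pros1, the cofactor protein S, rose from 39.7, 26.6 and 26.8 CPM to 89.8, 84.2 and 101 CPM (log2 fold change 1.57 ± 0.16, adjusted p = 3.9e-05). In each of these 4 genes the groups were separate, as they were in 57.1% of all tested genes. The 4 were named because they were the DEGs of the list, 2 higher and 2 lower. Their separation and their opposite directions follow from that choice and are no added result. Of the 3 other protease-activated receptors, F2rl1, which trypsin-like proteases cleave, rose from 53.3, 46.5 and 51.2 CPM to 82.4, 98.9 and 93.5 CPM (log2 fold change 0.86 ± 0.11, adjusted p = 1.7e-04), 1 was not called and 1 not tested.

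**Figure D5:**
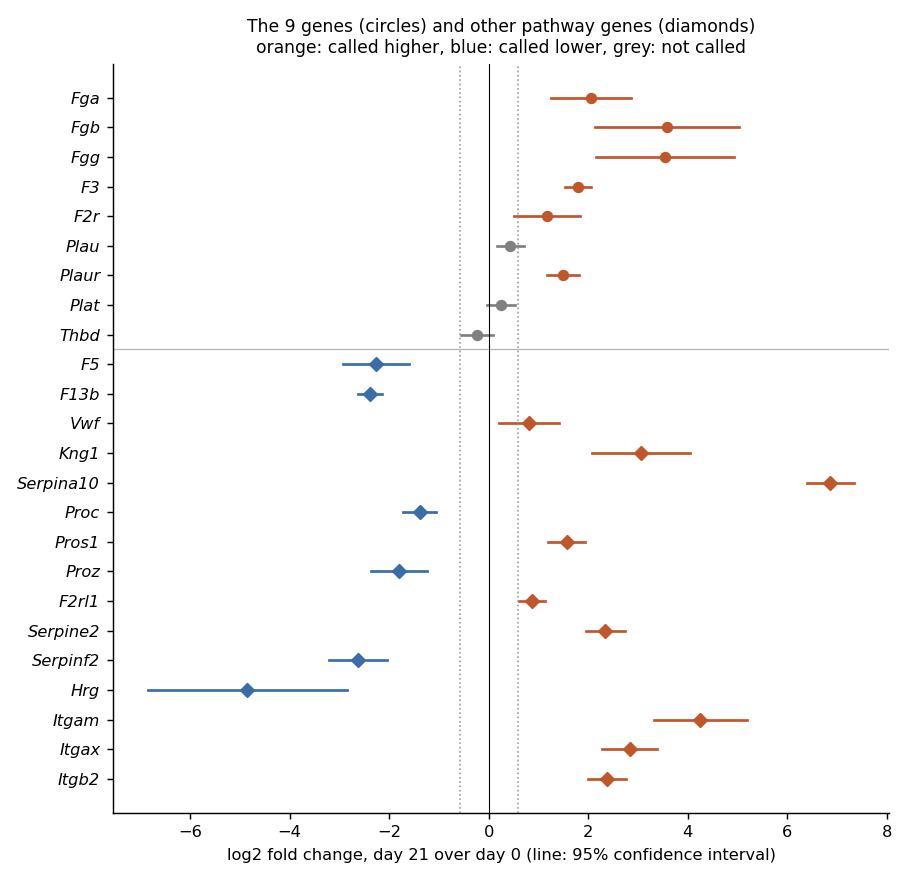
Log2 fold change, day 21 over day 0 (points), with its 95% confidence interval (line), for the 9 genes (circles) and named genes of the pathway lists (diamonds). Dotted lines mark the 1.5-fold bounds, and the intervals of Plat and Thbd cross 0.

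On the side of fibrinolysis, 10 of 13 genes for plasminogen, its inhibitors and its binding proteins were tested, with 6 higher, 2 lower and 2 not called. Plg, plasminogen itself, had 0 to 2 counts in every mouse, under the floor of 3 counts, so it was not detectable at this depth and no fold is given. Serpine2, which inhibits thrombin and urokinase, rose from 26.4, 31.6 and 25.9 CPM to 121, 122 and 183 CPM (log2 fold change 2.34 ± 0.18, adjusted p = 6.2e-06). The groups of Serpine2 did not overlap. Serpinf2, the inhibitor of plasmin, went down from 324, 524 and 419 CPM to 82.7, 42.2 and 79.5 CPM and fell by 2.63 ± 0.26 (adjusted p = 2.7e-05). Hrg, a plasma protein that binds plasminogen and fibrinogen, had 10, 43 and 35 counts at day 0, against 4, 0 and 0 at day 21. Its log2 fold change of -4.85 ± 0.90 (adjusted p = 0.0015) rests on these 4 counts, and it was -8.15 without day-21 replicate 1.

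The receptors of fibrinogen and crosslinking genes, 7 in all and all tested, had 4 higher, none lower and 3 not called. Itgam and Itgb2 encode the alpha and beta chains of Mac-1, the leukocyte integrin that binds fibrinogen. Itgam had 1, 10 and 5 counts at day 0, against 116, 166 and 177 at day 21 (log2 fold change 4.25 ± 0.42, adjusted p = 2.5e-05). The log2 fold change was 3.78 without day-0 replicate 1, the mouse with 1 count, and 4.94 without day-0 replicate 2. An annotated gene on the same strand, Gm49368, covers 68.7% of the exon bases of Itgam, so its level is uncertain. Itgb2 rose from 6.42, 9.23 and 6.08 CPM to 37.5, 38.4 and 38.5 CPM (log2 fold change 2.38 ± 0.17, adjusted p = 4.2e-06), and Itgax, the alpha chain of a related integrin, from 3.81, 3.71 and 1.96 CPM to 23.5, 25.8 and 18.8 CPM (log2 fold change 2.83 ± 0.25, adjusted p = 1.3e-05). The integrin genes are expressed by macrophages, whose markers rose as given above, and that share was not tested.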

How the data were processed

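Total RNA of kidneys from 6 mice was sequenced as paired-end cDNA. The authors aligned the reads and deposited raw counts per gene, not normalized, with each mouse in a column of its own. TopHat and mm10 are named in the submitters' processing notes, and the counting program and strand setting are not given in the sources used here. Each column was mapped to its group by its label, and the day-0 group is the one labelled control. The identifiers matched GENCODE M21, which supplied symbols, positions and exon lengths. The study's proteomic data were not used here.

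Counts were fitted in R 4.3.3 with edgeR 4.0.16 (TMM scaling, quasi-likelihood test) over 16592 genes that passed filterByExpr (minimum count 10, minimum total 15), comparing the 3 day-21 with the 3 day-0 mice. DEGs had a Benjamini-Hochberg adjusted p under 0.05 over all tested genes and a fold over 1.5, as in the study. Adjusted p-values of genes come from this fit. The 3-count floor (0.209–0.274 CPM) and the intervals cover counting error or the fit only. Ratios within a mouse used counts plus 0.5, with exact permutation tests (scipy 1.17.1). The fits were also run on simulated counts in which far fewer genes changed than here, which does not test the scaling.

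The genes and lists were chosen with earlier results of these data known. Named from each list were the 2 DEGs highest and the 2 lowest in log2 fold change, with Plg, Itgam, Itgb2 and the neighbours of the fibrinogen genes whatever their value. A gene that this rule named, and 1 of the 6 ratios, are not reported here, and both stay in the counts and in the adjustment of p. Libraries of a group differed beyond sampling noise (chi-square per gene 7.17–25.7). Replicate numbers did not pair the mice. Alternatives were RLE, upper-quartile and library-size scaling, no filter and a mean of at least 50 counts, DESeq2 1.42.0, limma-voom (limma 3.58.1), the replicate block, libraries without mitochondrial genes, each mouse left out, stricter thresholds and, for ratios, an added count of 2.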

Additional observations from a re-analysis of the deposited data

How the results depend on the processing

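The 6 calls among the 9 genes were made under every alternative, and with library size alone Plau (0.82) and Plat (0.63) were called too, making 8. Thbd turned from -0.23 to 0.15 with library size alone, where the median of all genes was 0.42. DEGs over all genes numbered 5821 and 3172 when the thresholds were tightened to 0.01 for the adjusted p and to 2-fold, a stricter rule by construction. Leaving out 1 mouse gave 5128 to 5920 DEGs, 14 to 15 pathway genes called higher and 6 to 8 lower, and 6 of the 9 genes in each case. Pathway genes called higher, 15 in the main comparison, numbered 22 with library size alone, 17 with upper-quartile scaling, 18 with no filter and 11 with the tightened thresholds, and DEGs over all genes 7323 with library size alone. Over the 15 alternatives, Fga ran from 1.72 to 2.50 on the log2 scale, Fgb from 3.10 to 5.17, Fgg from 3.04 to 4.56, F3 from 1.69 to 2.18, F2r from 0.94 to 1.55 and Plaur from 1.41 to 1.88. With a mean of at least 50 counts required, Kng1, Hrg and Lrat were not fitted. The unfiltered fit was read for direction and calls only. Same-numbered mice of the 2 groups correlated in their deviations at -0.019, 0.165 and 0.09, and the mice numbered 1 and 3 correlated more with another number (0.032 and 0.116). The replicate block gave 5758 DEGs and the same 6 calls. With 3 mice a group, an exact test of 1 value cannot go below 0.1, and genes under 3 counts, such as Plg, cannot be compared at this depth.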

Other observations

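Of 12 acute phase genes, 5 were tested and 4 were called higher, by unequal amounts. Lcn2, which binds bacterial siderophores, had a log2 fold change of 6.27 ± 0.16 (SE, adjusted p = 4.7e-08), Cp, the copper-carrying ferroxidase ceruloplasmin, 3.28 ± 0.23 (adjusted p = 3.4e-06), Lbp, which binds lipopolysaccharide, 2.57 ± 0.16 (adjusted p = 2.3e-06), and Itih3, a hyaluronan-binding inhibitor chain, 2.09 ± 0.33 (adjusted p = 5.3e-04), all from edgeR's quasi-likelihood test. Hp, the haptoglobin gene, was tested and not called (0.35 ± 0.49, adjusted p = 0.595), and the other 7 genes were too low to be tested.

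Erythroid genes were called lower in 5 of 5, against 15.5% of all tested genes, with sums of 227–524 CPM on day 0 and 33.8–77.5 CPM on day 21. Whether this reflects the amount of blood in the tissue was not tested. Platelet and megakaryocyte markers summed to 8.76–9.89 CPM on day 0 and 7.66–9.54 CPM on day 21, with Pf4 called higher, 2 not called and 5 not tested. Of 7 neutrophil markers 3 were tested, with Csf3r called higher and S100a8 and S100a9 lower. Of 7 markers of the loop, distal tubule and collecting duct, 5 were called lower.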
